A study of Drosophila melanogaster with 12 samples.

Results

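The comparison described here is that of neuron-specific *PIG-A* knockdown heads with their own control heads, and its members are the 6 libraries of the elav-GAL4 cross out of 12 in the series, 3 knockdown against 3 control. Both groups carried ELAV-GAL4, a driver active in neurons. The knockdown flies had it crossed to the RNAi line BDSC 62696 and the controls to the AttP line BDSC 36304, which carries no RNAi transgene. Flies were kept at 25°C, were 3 to 5 days old and were untreated according to the labels, which give 5 to 10 heads per library, whereas the methods of the study give 10 heads of 3-day-old males. The other 6 libraries came from knockdown and control heads under REPO-GAL4, a driver of glia, and no library is shared between the drivers. Whole heads were extracted, so each value is a mixture of knockdown neurons with glia, fat body, muscle and cuticle that carried no driven RNAi, and fewer cells of a type and less RNA per cell cannot be told apart. Nothing in the labels ties a library to a batch or a day.

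*PIG-A* encodes the catalytic subunit of the enzyme that starts the glycosylphosphatidylinositol (GPI) anchor, a glycolipid made in the endoplasmic reticulum (ER) that holds proteins on the outer face of the plasma membrane. Neurons use GPI-anchored proteins in adhesion, in wiring and in the control of ion channels. In humans, partial loss of the orthologous gene causes a congenital disorder of glycosylation with seizures and developmental delay.

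The targeted gene was low in every head library. *PIG-A* (FBgn0034270) had 113, 153 and 76 counts in the controls and 79, 75 and 81 counts in the knockdown, or, in CPM (counts scaled to a common library size), 3.71, 5.17 and 3.58 against 2.98, 2.52 and 3.00. All 3 knockdown libraries lay below all 3 controls, although the lowest control and the highest knockdown library were close. The log2 fold change was -0.55 ± 0.20 (SE, n = 3 per group) and did not pass edgeR's quasi-likelihood test (adjusted p = 0.284). Transcript of *PIG-A* in other cells of the head is included in these counts. The gene of the driver, *elav*, an RNA-binding protein of neurons, had 128, 123 and 120 CPM in controls and 113, 112 and 112 CPM in knockdown heads (log2 fold change -0.14 ± 0.07, edgeR adjusted p = 0.388). The glial gene *repo* overlapped between the groups, at 45.9 to 52.8 CPM in controls and 40.4 to 49.9 CPM in knockdown heads.

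The 6 libraries held 20694850 to 30593602 counts over 12064 to 12528 genes, and 3 counts corresponded to 0.0984 to 0.141 CPM, a floor that covers counting error only. The controls resembled each other closely (Spearman correlation of log2 CPM across genes 0.995 to 0.997, a description with no test), whereas knockdown library 3 stood apart from all other libraries (0.974 to 0.980) and knockdown library 2 was the closest to the controls (0.993 to 0.994). Of 9910 genes with a mean of at least 10 counts, 331 lay at least 2-fold above the highest control in knockdown library 3, 198 in library 1 and 50 in library 2. Muscle marker genes summed to 6643 to 6940 CPM in controls, 7720 and 6824 CPM in knockdown libraries 1 and 2, and 23494 CPM in library 3. In the glia-specific libraries, used here only to compare effects, 1 control likewise stood apart, with the muscle gene *Mhc* at 7728 CPM in control library 3 beside 1729 and 1440.3 CPM in the other controls. The sum of the 12 photoreceptor markers ran the other way, at 55839 to 58195 CPM in controls and 48404, 57231 and 38358 CPM in the knockdown. Abundant markers weigh most in that sum, such as *ninaE*, with a mean of 27554 CPM in controls and 22005 CPM in the knockdown. By gene, 7 of the 12 had a positive log2 fold change. Their median of log2 CPM minus the control mean was 0.00, 0.09 and 0.01 in knockdown libraries 1, 2 and 3. Although the methods state that males were used, the yolk protein genes *Yp1*, *Yp2* and *Yp3*, made by the fat body of females, were among the most abundant transcripts (*Yp1* at 34220 to 51694 CPM in controls and 38463 to 82616 CPM in knockdown heads), and *roX1*, a male-specific RNA of dosage compensation, stood at 4.76 to 4.98 CPM in controls and at 4.71, 5.14 and 1.45 CPM in the knockdown. Their part in the results below was not tested.

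Few genes passed the edgeR test, and many more were separated without passing it. Of 9983 genes tested, 8 rose (0.0801%) and 8 fell (0.0801%), 16 in all (0.16%), where a call needed an adjusted p no higher than 0.05 together with 1.5-fold or more change. DESeq2 at the same thresholds called 174 of these genes higher (1.74%) and 102 lower (1.02%), 2.76% in either direction, and its calls include all 16 of edgeR. An unadjusted p under 0.05 was found for 798 genes with a higher (7.99%) and 644 with a lower value (6.45%) in the knockdown. All 3 knockdown libraries lay above all 3 controls for 1060 genes (10.6%) and below them for 1086 (10.9%), so that 21.5% did not overlap, and the remaining genes overlapped between the groups. The median log2 fold change of all genes tested was 0.00, and 50.6% of them had a positive value. The count of calls depended on single libraries: 74 genes were called higher and 45 lower without knockdown library 3, 127 and 72 without library 2, and 9 and 7 without library 1, while leaving out any 1 control left 1 or 2 higher and 0 or 1 lower.

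All 16 genes called by edgeR lie on chromosome 3, 10 on arm 3L and 6 on arm 3R. Among 9895 genes tested that have a position on a chromosome arm, 4352 lie there (44.0%). The share was 73.5% (36 of 49 genes with a position) among the 50 genes with the smallest p and 61.1% among the 200 smallest. It was 51.4% among all DESeq2 calls (142 of 276 with a position) and 47.2% among genes whose libraries did not overlap (1000 of 2120). Without knockdown library 3 it was 60.2% of the edgeR calls, and without library 2 it was 54.6%. No test was made of these shares. The RNAi and AttP parents are separate stocks, and an allele carried by a stock and an effect of the knockdown cannot be told apart in this comparison.

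**Figure D1:**
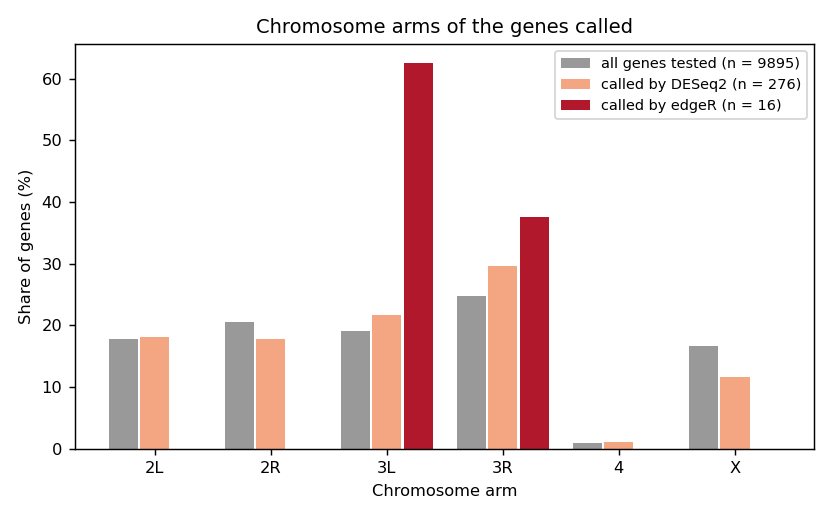
Share of genes (%) on each chromosome arm for all genes tested, for genes called by DESeq2 and for genes called by edgeR in the neuron-specific comparison. The edgeR calls lie on 3L (62.5%) and 3R (37.5%) alone, while the DESeq2 calls lie on every arm, with 51.4% on chromosome 3 beside 44.0% of all genes tested.

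The gene with the most complete loss was *mthl8*, a member of the methuselah-like family of G protein-coupled receptors at chr3L:22428-26308. It had 181, 231 and 131 counts in the controls and 0 counts in each knockdown library, which makes it at least 185-fold lower against a floor of 3 counts over the group (edgeR adjusted p = 0.0065). Of 10 family members tested it alone was called. Its reads were likewise 0 in all 3 knockdown libraries of the glial driver.

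*Su(var)3-3*, the fly counterpart of the histone H3K4 demethylase LSD1 (chr3L:20226381-20230250), fell from 76.0, 79.3 and 70.0 CPM to 13.4, 13.9 and 21.0 CPM. The groups were far apart, with a log2 fold change of -2.22 ± 0.18 (edgeR adjusted p = 0.0088). *Vps13B*, whose human ortholog is a lipid transfer protein of the Golgi mutated in Cohen syndrome (chr3R:29935978-29948207), fell from 69.1, 90.6 and 77.8 CPM to 33.1, 30.5 and 28.5 CPM (log2 fold change -1.37 ± 0.12, edgeR adjusted p = 0.0098). The knockdown libraries of *Vps13B* agree to within a few CPM, and the highest of them is less than the lowest control by a wide margin. *CG4757* (chr3R:11161207-11163498) fell from 72.2, 82.9 and 79.2 CPM to 21.1, 25.4 and 15.4 CPM (log2 fold change -1.92 ± 0.18, edgeR adjusted p = 0.011). *CG31220* (chr3R:19648487-19650586) was low in controls, at 1.90, 1.59 and 1.18 CPM, and near the floor in the knockdown, at 0.226, 0.235 and 0.148 CPM (edgeR adjusted p = 0.0343).

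The other 3 decreases came from 1 locus on 3L with overlapping annotations. *CG3552* (chr3L:9456318-9459370, plus strand) fell from 30.4, 30.9 and 29.1 CPM to 12.5, 12.4 and 8.38 CPM. The antisense RNA gene *asRNA:CR45873* (chr3L:9456339-9457296) lies inside it on the same strand and fell from 8.26, 10.2 and 8.58 CPM to 2.64, 2.79 and 1.63 CPM. *CG3434* (chr3L:9459369-9460799, minus strand), whose annotated end touches that of *CG3552*, fell less, from 16.3, 15.6 and 16.3 CPM to 9.04, 8.71 and 9.94 CPM. In each of the 3 the groups were separated, and their log2 fold changes were -1.44, -1.93 and -0.80 (edgeR adjusted p = 0.0251, 0.0297 and 0.0407). *CG3437*, on the minus strand within *CG3552*, had 7.25 to 8.02 CPM in controls and 5.35 to 6.32 CPM in the knockdown without being called. Whether reads were counted by strand is not given in the sources used here, so these genes are not independent values.

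Of the 8 increases, *CG12947* (chr3R:9780064-9783054) had the smallest p and was the only gene of the 16 called after leaving out any 1 of the 6 libraries. Its level was 4.39, 3.85 and 3.87 CPM in controls and 29.2, 32.3 and 34.2 CPM in the knockdown, 7.88-fold higher (log2 fold change 2.98 ± 0.11, edgeR adjusted p = 0.000108). All 3 knockdown libraries were alike, including library 3. *CG8757* (chr3L:13840197-13842240) was close to the floor in controls, at 0.262, 0.101 and 0.0472 CPM, and reached 3.58, 3.97 and 3.67 CPM (log2 fold change 4.64 ± 0.40, edgeR adjusted p = 0.0098). Its fold change rests on very few control reads, but its knockdown libraries do not come near them.

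*CG11426*, of the lipid phosphate phosphatase family that removes phosphate from lipids such as phosphatidic acid (chr3L:22470556-22473509), rose from 19.9, 21.0 and 25.6 CPM to 121, 107 and 201 CPM (log2 fold change 2.69 ± 0.25, edgeR adjusted p = 0.0111). Knockdown library 3 was the highest, and the lowest knockdown library was still several times the highest control. Of the 7 members of this family tested, all had a positive log2 fold change with a median of 0.51 (all genes tested, 0.00). The neighbours *CG11425* (6.23, 6.72 and 7.59 against 10.8, 11.4 and 13.7 CPM) and *CG11438* (6.43, 6.86 and 6.04 against 10.7, 9.18 and 19.1 CPM) were also separated, and DESeq2 but not edgeR called them. Without knockdown library 3 the median of the family was 0.20.

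*rdhB*, a retinol dehydrogenase of the visual chromophore pathway (chr3R:22351696-22356264), rose from 38.9, 41.4 and 36.6 CPM to 140, 117 and 167 CPM, 3.62-fold (log2 fold change 1.86 ± 0.14, edgeR adjusted p = 0.0065). *Syn*, which encodes synapsin, a phosphoprotein that tethers synaptic vesicles (chr3R:10190689-10222442), was the most abundant of the 16 and changed least, from 336, 327 and 335 CPM to 512, 538 and 546 CPM (log2 fold change 0.68 ± 0.08, edgeR adjusted p = 0.046). The spread within each group of *Syn* was a few percent of its level. *Timp*, nested in *Syn* on the opposite strand, overlapped between groups at 90.5 to 100.3 and 80.0 to 98.5 CPM.

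The remaining increases were genes of low level. *Mis12*, a kinetochore subunit (chr3L:6968035-6969048), rose from 2.03, 2.09 and 1.89 CPM to 5.88, 4.84 and 5.30 CPM (log2 fold change 1.41, edgeR adjusted p = 0.027). *CG14567* (chr3L:21737706-21738430) rose from 11.3, 8.54 and 9.57 CPM to 27.3, 23.6 and 29.1 CPM (log2 fold change 1.44, edgeR adjusted p = 0.011). *Apl* (chr3L:16595181-16600459), an importin gene, rose from 0.721, 0.743 and 0.849 CPM to 3.39, 2.93 and 2.60 CPM (log2 fold change 1.95, edgeR adjusted p = 0.0269). *Apl* lies next to *Arts*, a closely related copy at chr3L:16602851-16608146, which had 22.7, 28.2 and 25.7 CPM in controls and 22.8, 21.7 and 20.9 CPM in the knockdown, so the assignment of reads between the copies is uncertain.

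**Figure D2:**
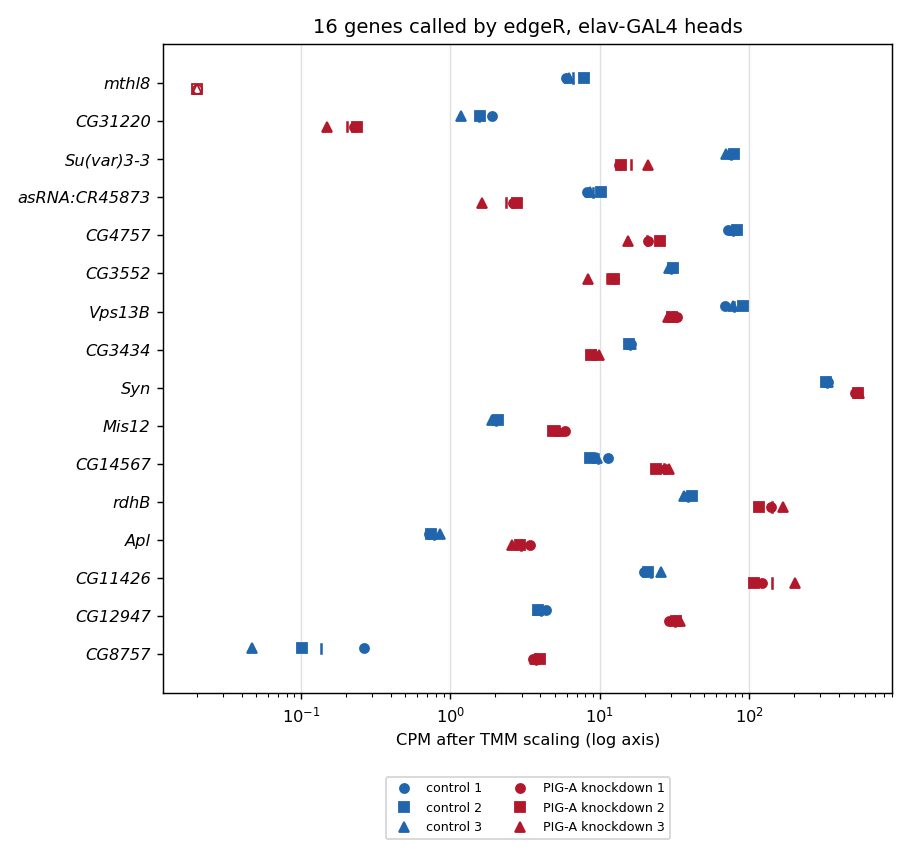
CPM after TMM scaling (log axis) of the 16 genes called by edgeR in each control (blue) and knockdown (red) library, with vertical ticks at the group means and symbols for replicates 1 to 3. No gene overlaps between the groups, and the open symbols at the left edge mark the 0 counts of *mthl8* in all 3 knockdown libraries.

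Genes of energy metabolism had mostly positive values, and none passed the edgeR test. Glycolysis breaks glucose down to pyruvate, and the fly head feeds it from trehalose, the sugar of the hemolymph, and from glycogen. All 15 glycolytic genes tested had a positive log2 fold change, with a median of 0.62 (range 0.18 to 1.03), and 14 were separated above the controls (all genes tested, 10.6%). DESeq2 called 8 of them (all genes tested, 1.74% higher), *Gapdh1*, *Hex-C*, *Ldh*, *Pgi*, *Pgm1*, *fbp*, *Tpi* and *Pgk*. *Ldh*, lactate dehydrogenase, had 10.1, 9.42 and 8.07 CPM in controls and 20.4, 14.8 and 21.5 CPM in the knockdown (log2 fold change 1.03 ± 0.17, edgeR adjusted p = 0.0901). *Pgm1*, phosphoglucomutase, had 308, 263 and 299 CPM in controls and 585, 370 and 501 CPM in the knockdown. In these 2 genes, as in the list as a whole, knockdown library 2 was the nearest to the controls: the median over the 15 genes of log2 CPM minus the control mean was 0.54, 0.27 and 0.79 in knockdown libraries 1, 2 and 3. Without library 3 the median log2 fold change was 0.43, and without library 2 it was 0.75. *Hex-A* (0.18), the main hexokinase, and pyruvate kinase *PyK* (0.30) had the lowest log2 fold changes of the list. This pathway was picked by the study from these libraries and is not independent evidence of a direction.

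Genes of trehalose and glycogen followed the same order of libraries. All 11 tested had a positive log2 fold change (median 0.70, range 0.22 to 3.51) and 9 were separated above the controls (all genes tested, 10.6%). *UGP*, which makes the UDP-glucose used for glycogen and trehalose, had 414, 368 and 382 CPM in controls and 784, 529 and 690 CPM in the knockdown (log2 fold change 0.78 ± 0.15, edgeR adjusted p = 0.107, DESeq2 adjusted p = 0.000127). *AGBE*, the glycogen branching enzyme, had 104, 107 and 104 CPM in controls and 172, 122 and 216 CPM in the knockdown. The trehalose transporter gene *Tret1-1* had 376, 327 and 350 against 523, 419 and 562 CPM, again with the lowest knockdown value in library 2. DESeq2 called 4 of the 11 higher (all genes tested, 1.74%).

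Subunits of the respiratory chain and ATP synthase differed by smaller amounts, and mostly in 1 library. Of 64 tested, 63 had a positive log2 fold change (median 0.44) and 41 were separated above the controls (all genes tested, 10.6%), but neither edgeR nor DESeq2 called any, and 29 had a higher value with an unadjusted edgeR p under 0.05 (all genes tested, 7.99%). The medians by library were 0.25, 0.14 and 0.82 in knockdown libraries 1, 2 and 3, and the median log2 fold change was 0.19 without library 3. *COX6B*, of complex IV, had 274, 229 and 272 CPM in controls and 356, 311 and 481 CPM in the knockdown. *ATPsynD*, of ATP synthase, had 241, 216 and 237 against 296, 274 and 439 CPM. Muscle is rich in mitochondria, and the muscle markers summed highest in the same library 3; their part in these values was not tested. Mitochondrial ribosomal proteins had a median of 0.13 over 71 genes, 54 of them positive, with 26 separated above the controls (all genes tested, 10.6%) and 3 below (10.9%).

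Amino acid metabolism was divided. In serine, glycine and folate-linked metabolism, 11 of 15 genes had a positive log2 fold change (median 0.49), 6 were separated above the controls (all genes tested, 10.6%) and 1 below (10.9%), and DESeq2 called 6 higher (1.74%) and 1 lower (1.02%). *pug*, a folate enzyme, had 206, 189 and 207 CPM in controls and 710, 286 and 384 CPM in the knockdown, and *Gnmt*, glycine N-methyltransferase, had 1.80, 2.13 and 1.60 against 12.2, 3.46 and 3.93 CPM. Both were highest in knockdown library 1, without which the median of the list was 0.19. The mitochondrial folate enzyme *Nmdmc* went the other way, with 71.4 ± 12.8 CPM in controls and 35.2 ± 19.7 CPM in the knockdown (SD, n = 3 each) and overlapping libraries, and DESeq2 called it lower. Among 14 other amino acid genes, *Oat*, ornithine aminotransferase, had 27.6, 30.9 and 29.6 against 83.1, 47.3 and 66.9 CPM and *Got2*, a transaminase, had 185, 187 and 186 against 570, 225 and 403 CPM. The asparagine synthetase *AsnS* had 144, 132 and 181 CPM in controls and only 110, 90.0 and 57.9 CPM in the knockdown (log2 fold change -0.83 ± 0.23, edgeR adjusted p = 0.207), and it alone of these 14 had a negative log2 fold change.

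Genes that build ribosomes in the nucleolus had negative values. Box C/D and H/ACA proteins take part in the modification of ribosomal RNA, and RNA polymerase I transcribes it. All 15 genes tested of this group had a negative log2 fold change (median -0.46, range -0.72 to -0.24), 12 were separated below the controls (all genes tested, 10.9%) and DESeq2 called 3 lower (1.02%), *nop5*, *Nop56* and *Nop60B*, while edgeR called none. *Nop60B*, the pseudouridine synthase dyskerin, had 80.2, 74.6 and 76.5 CPM in controls and 39.6, 63.5 and 39.6 CPM in the knockdown (edgeR adjusted p = 0.194). *Nopp140* had 61.5, 59.9 and 61.3 against 42.4, 48.2 and 32.5 CPM. Again knockdown library 2 was the least different, with a median of -0.21 beside -0.48 and -0.64 in libraries 1 and 3. The study picked nucleolar genes from these libraries too.

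Other parts of protein production gave smaller values. Of 83 cytoplasmic ribosomal proteins, 82 had a negative log2 fold change (median -0.17), but the median by library was -0.02, -0.02 and -0.52, so the difference came from knockdown library 3, without which the median was -0.03. Among 32 aminoacyl-tRNA synthetases (median -0.07), 9 were separated below the controls (all genes tested, 10.9%) and 3 above, a share close to the 10.6% of all genes tested. DESeq2 called 2 of the 32 lower (1.02%), *AsnRS* and *LeuRS*. *LeuRS* had 68.8, 74.7 and 86.2 CPM in controls and 52.6, 51.9 and 42.7 CPM in the knockdown (log2 fold change -0.64 ± 0.12, edgeR adjusted p = 0.0959). Of 31 proteasome subunits, 29 had a positive log2 fold change but of small size (median 0.13, range -0.06 to 0.29), and 15 were separated above the controls (all genes tested, 10.6%). *Rpn10*, a ubiquitin receptor of the proteasome, had 59.6, 59.3 and 61.4 against 69.1, 68.9 and 69.2 CPM.

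**Figure D3:**
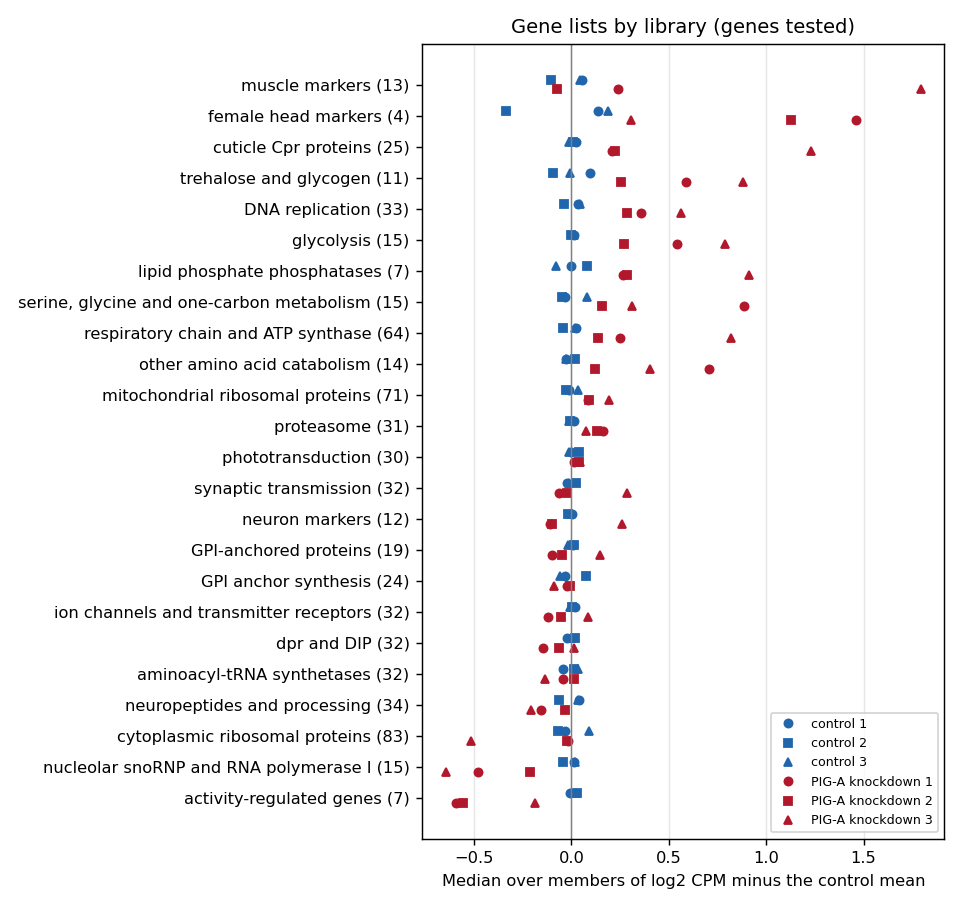
Median over the members of each gene list of log2 CPM minus the mean of the controls (x axis), for each control (blue) and knockdown (red) library, with the number of genes tested in brackets. Glycolysis and the nucleolar list leave the controls in all 3 knockdown libraries, whereas the muscle, cuticle, respiratory chain and cytoplasmic ribosomal lists do so mainly in knockdown library 3.

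In the pathway of *PIG-A* itself no gene was called. Of 24 genes of GPI anchor synthesis and remodelling tested, the median log2 fold change was -0.04 (range -0.57 to 0.35), 3 were separated below the controls and 0 above, and 0 were called by edgeR or DESeq2, with 2 lower at an unadjusted edgeR p under 0.05. The share below is near that of all genes tested (10.9%), as is the share with such a p (6.45%), and neither is a result about the pathway. The 3 genes were *PIG-A*, *PIG-K*, the protease of the transamidase that attaches the anchor (32.8, 32.2 and 30.1 against 29.6, 28.4 and 23.0 CPM), and *Dpm3*, of the dolichol-phosphate mannose synthase that supplies mannose to the anchor (4.16, 4.49 and 3.54 against 2.86, 2.76 and 2.63 CPM). Genes of 19 proteins with a GPI anchor had a median of 0.00 (range -0.17 to 0.37). *qvr*, a regulator of the Shaker channel, was separated below the controls with 655, 614 and 608 CPM in controls and 572, 556 and 545 CPM in the knockdown (log2 fold change -0.17 ± 0.09, edgeR adjusted p = 0.45), and *dally*, a glypican, was separated above them with 125, 127 and 120 against 131, 131 and 152 CPM. No protein was measured, so the amount of anchored protein is unknown. In the ER, *Hsc70-3*, the chaperone BiP, had 434, 404 and 486 CPM in controls and 717, 550 and 598 CPM in the knockdown (log2 fold change 0.50 ± 0.13, edgeR adjusted p = 0.194), while *Ire1*, a sensor of unfolded protein, had 112, 115 and 112 against 92.7, 91.3 and 87.5 CPM. The list of ER folding and degradation, 19 genes, had a median of 0.10.

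Genes of the nervous system had medians close to the controls, with knockdown library 3 above libraries 1 and 2. Over 12 neuron markers the median log2 fold change was 0.01, over 32 genes of synaptic transmission 0.06, over 32 ion channels and receptors -0.04, and over 32 members of the dpr and DIP families of synaptic recognition proteins -0.05. By knockdown library 1, 2 and 3 the medians were -0.11, -0.10 and 0.26 for neuron markers and -0.06, -0.02 and 0.29 for synaptic genes. Without library 3 the median log2 fold changes were -0.10 and -0.06 for these lists, and -0.09 for the channels and for the dpr and DIP families. Besides *Syn*, the synaptic gene that stood out was *brp*, the Bruchpilot scaffold of the active zone, with 519, 538 and 518 CPM in controls and 693, 770 and 954 CPM in the knockdown, a difference called by DESeq2 (adjusted p = 0.000813) but not by edgeR (log2 fold change 0.62 ± 0.14, adjusted p = 0.144). The other 30 synaptic genes were called by neither tool. Of 34 neuropeptide and processing genes, 24 had a negative and 10 a positive log2 fold change (median -0.11; 50.6% of all genes tested had a positive value), with no test of that split. *Tk*, tachykinin, had 59.3, 63.1 and 58.2 against 43.4, 43.8 and 49.7 CPM and was called by neither tool. The 1 member called by DESeq2 lay the other way, *Nplp4*, with 5.48, 2.40 and 3.07 CPM in controls and 8.44, 5.92 and 12.3 CPM in the knockdown (log2 fold change 1.28 ± 0.37, edgeR adjusted p = 0.22).

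Genes known to be induced by neuronal activity had mostly negative values. Of 7 tested, 6 had a negative log2 fold change (median -0.47), 4 were separated below the controls (all genes tested, 10.9%) and 1 above (10.6%). *Arc1*, a capsid-forming synaptic RNA carrier, had 32.7, 37.4 and 35.9 CPM in controls and 22.4, 22.3 and 17.5 CPM in the knockdown (log2 fold change -0.77 ± 0.11, edgeR adjusted p = 0.0851). The nuclear receptor gene *Hr38* had 53.7, 62.1 and 62.4 against 33.2, 34.4 and 16.6 CPM (log2 fold change -1.08 ± 0.26, edgeR adjusted p = 0.159). DESeq2 called both lower, 2 of the 7 (all genes tested, 1.02%). In this list all 3 knockdown libraries are low for both genes, and the median without library 3 was -0.66. The damage-response gene *Gadd45* had 20.1, 16.5 and 25.6 against 8.14, 12.5 and 8.94 CPM and was called lower by DESeq2, while the rest of a 10-gene list of cell death and JNK signalling was not called.

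In the eye, the median log2 fold change was 0.05 over 12 photoreceptor markers and 0.06 over 30 phototransduction genes. *Arr1*, arrestin 1, was separated below the controls with 7171, 7852 and 7502 CPM in controls and 5686, 6531 and 4605 CPM in the knockdown (log2 fold change -0.42 ± 0.17, edgeR adjusted p = 0.326). *Pdh*, a retinoid dehydrogenase of pigment cells, was separated above them with 1320.1, 1331 and 1157 CPM in controls and 1784, 1665 and 1874 CPM in the knockdown. *eys*, which spaces the light-sensing organelles, had 320, 320 and 316 CPM in controls and 459, 450 and 804 CPM in the knockdown and was called by DESeq2. In the circadian clock, *per* had 44.3, 51.2 and 50.6 against 60.4, 71.3 and 115 CPM and *tim* had 87.6, 95.8 and 91.9 against 99.1, 135 and 327 CPM, while *Clk* had 56.7, 59.1 and 56.9 against 50.7, 53.2 and 31.7 CPM. All 3 are furthest from the controls in knockdown library 3, and the hour of collection of each library is not given in the sources used here.

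Several genes called by DESeq2 alone had large increases that varied widely among the knockdown libraries. *Lsp2*, a storage protein of the hemolymph made by the fat body, had 8.92, 5.57 and 12.2 CPM in controls and 2537, 29.0 and 655 CPM in the knockdown (log2 fold change 6.92 ± 1.48, edgeR adjusted p = 0.137). The odorant-binding protein gene *Obp99a* had 2.89, 2.70 and 4.34 against 173, 19.4 and 209 CPM (log2 fold change 5.35 ± 0.87, edgeR adjusted p = 0.0901), and the detoxifying glycosyltransferase gene *Ugt35B1* had 1.87, 2.09 and 1.41 against 32.0, 9.25 and 20.7 CPM (log2 fold change 3.51 ± 0.46, edgeR adjusted p = 0.0565). Every knockdown library exceeds every control in these 3 genes, yet library 2 is well below the other knockdown libraries. *CG3699* showed the same order, with 3.38, 3.88 and 4.10 against 91.6, 8.94 and 37.5 CPM. The seminal fluid protein gene *Sfp77F* had 0 counts in the 3 controls and was at least 21.8-fold higher in the knockdown, at 1.06, 0.942 and 0.408 CPM. *CG31380*, also near the floor in controls, had 0, 0.169 and 0 CPM in controls and 5.31, 1.35 and 2.26 CPM in the knockdown. The RNA gene *lncRNA:CR45456* had 0.328, 0.338 and 0.283 against 1.21, 0.807 and 8.23 CPM, the highest in library 3. *Ugt37A3* had 1.57, 1.32 and 1.93 against 25.0, 3.30 and 8.31 CPM, the lowest again in library 2. The list of fat body markers, which includes *Lsp2*, had a median of 0.23 over the 7 genes tested, 5 of them positive and 2 negative. Its 8 genes, *Lsp2* among them, summed to 10686 to 10720 CPM in controls and 17163, 10677 and 11518 CPM in the knockdown. *Lsd-1*, perilipin 1 of lipid droplets, was separated below the controls with 495, 375 and 488 CPM in controls and 268, 261 and 348 CPM in the knockdown, and *ACC*, which makes malonyl-CoA for fatty acid synthesis, was separated above them with 814, 720.5 and 762 against 1679.8, 950.4 and 1320.2 CPM.

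*Yp2* and *fit*, both female-enriched, were separated above the controls. *Yp2* had 18994, 12524 and 18933 CPM in controls and 50100.4, 41796 and 23119 CPM in the knockdown, and *fit*, a fat body signal of feeding, had 183, 154 and 238 against 953, 450 and 345 CPM. DESeq2 called both higher, along with *Yp3*, so 3 of the 4 female markers (all genes tested, 1.74%). Of the 4, edgeR called 0, and 3 had a higher value at an unadjusted edgeR p under 0.05 (all genes tested, 7.99%). Knockdown library 3 is the closest to the controls in these genes, unlike most others. The share of males and females among the heads of a library was not measured.

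Muscle and cuticle genes were high in knockdown library 3. The 13 muscle genes tested all had a positive log2 fold change (median 0.91), and the median without library 3 was 0.06. *Mhc*, myosin heavy chain, had 2001, 2083 and 2226 CPM in controls and 2533, 2315 and 7013 CPM in the knockdown. Of 25 Cpr cuticle proteins, 21 had a positive value (median 1.05, 0.35 without library 3), and *Cpr100A* had 3.80, 4.32 and 3.11 against 10.7, 5.75 and 244 CPM. Neither list had a gene called by edgeR.

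**Figure D4:**
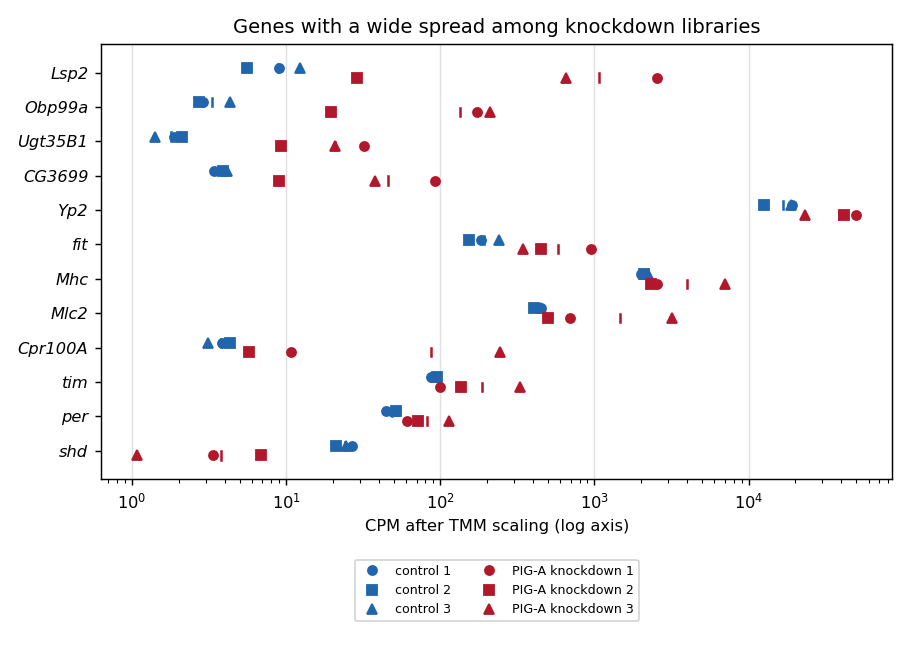
CPM after TMM scaling (log axis) of genes of the fat body, female head, muscle, cuticle and clock in each control (blue) and knockdown (red) library, with ticks at the group means. *Obp99a*, *Ugt35B1*, *CG3699* and *shd*, which belong to none of these groups, are also shown. *Lsp2*, *Obp99a*, *Ugt35B1* and *CG3699* are lowest in knockdown library 2, and *Mhc*, *Mlc2*, *Cpr100A* and *tim* are highest in library 3.

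Other genes called by DESeq2 alone had large decreases. *shd*, the cytochrome P450 that turns ecdysone into the active hormone 20-hydroxyecdysone, had 26.5, 21.2 and 24.4 CPM in controls and 3.35, 6.86 and 1.08 CPM in the knockdown (log2 fold change -2.66 ± 0.52, edgeR adjusted p = 0.106). The antibacterial peptide genes *DptA* (3.41, 1.89 and 7.92 against 0.0754, 0.538 and 0.148 CPM) and *Def* (29.1, 21.5 and 35.7 against 16.9, 13.2 and 13.4 CPM) were separated below the controls, and *Drsl5* and *BomS2* above them, so the 24 antimicrobial peptide genes had no common direction (median 0.07). *Diedel*, an immune regulator, was low in both groups, at 2.82, 1.22 and 1.27 against 0.264, 0 and 0.63 CPM. *CG9757* had 5.05, 6.18 and 8.11 against 0.49, 1.75 and 0.111 CPM, and *CG4269* had 18.8, 9.73 and 12.6 against 2.15, 2.56 and 0.408 CPM. *CG5697* and *Alp10*, both low, had 0.777 to 1.41 and 0.59 to 2.97 CPM in controls. In the knockdown they were near the floor, at 0.0673 to 0.301 and 0 to 0.37 CPM. *CG5246* had 8.49, 5.13 and 9.10 CPM in controls and 0.151, 1.21 and 0.334 CPM in the knockdown (log2 fold change -3.70 ± 0.59, edgeR adjusted p = 0.0901). Of 76 cytochrome P450 genes tested, DESeq2 called 2 higher (all genes tested, 1.74%) and 2 lower (1.02%), with a median of 0.02.

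Genes of DNA replication, a list written after their values were seen, were low in level, with mostly positive values. Of 33 tested, 29 had a positive log2 fold change (median 0.67), 18 were separated above the controls (all genes tested, 10.6%) and 1 below (10.9%), and DESeq2 called 12 higher (1.74%); since the list was written with these values in view, its counts support nothing. *Mcm7*, of the replicative helicase, had 0.721, 0.54 and 0.755 CPM in controls and 2.64, 1.98 and 4.56 CPM in the knockdown (log2 fold change 2.19 ± 0.37, edgeR adjusted p = 0.0901). *Claspin*, of the replication checkpoint, had 0.262, 0.101 and 0.613 against 3.54, 1.58 and 4.23 CPM. *Ts*, thymidylate synthase, had 0.23, 0.135 and 0.189 against 1.09, 1.01 and 2.08 CPM, and *RnrL*, of ribonucleotide reductase, had 2.13, 2.67 and 2.55 against 5.01, 4.37 and 5.56 CPM. All 3 knockdown libraries exceeded the controls in each of these genes, and the median of the list without library 3 was 0.53.

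The difference between the neuron-specific and glia-specific comparisons was tested as an interaction over all 12 libraries. The effect of the knockdown differed for 309 of 10257 genes (3.01%), with the effect under elav-GAL4 higher for 64 (0.624%) and lower for 245 (2.39%). Of the 16 genes called in neuron-specific knockdown, 15 had the same sign in the glia-specific comparison, 9 were also called there (all genes tested in glia-specific knockdown, 2.67% higher and 0.925% lower) and 3 differed between the drivers. Those 3 were *CG11426* (log2 fold change 2.69 under elav-GAL4 and 0.49 under repo-GAL4, edgeR interaction adjusted p = 0.0081), *CG14567* (1.44 and 0.41, edgeR interaction adjusted p = 0.0202) and *CG31220* (-2.91 and -0.66, edgeR interaction adjusted p = 0.0391). *CG4757* alone had opposite signs (-1.92 and 1.85), with a difference that missed the threshold (edgeR interaction adjusted p = 0.0681). The 9 called in both were *mthl8*, *Su(var)3-3*, *asRNA:CR45873*, *CG3552*, *Vps13B*, *CG3434*, *rdhB*, *Apl* and *CG12947*. Both knockdowns used the same RNAi and AttP stocks, so a difference of the stocks would appear in both comparisons and cannot be told apart from an effect shared by neurons and glia. Among the 269 DESeq2 calls that were also tested in glia-specific knockdown, 176 had the same sign there, and among all genes tested in both it was 4474 of 9791.

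**Figure D5:**
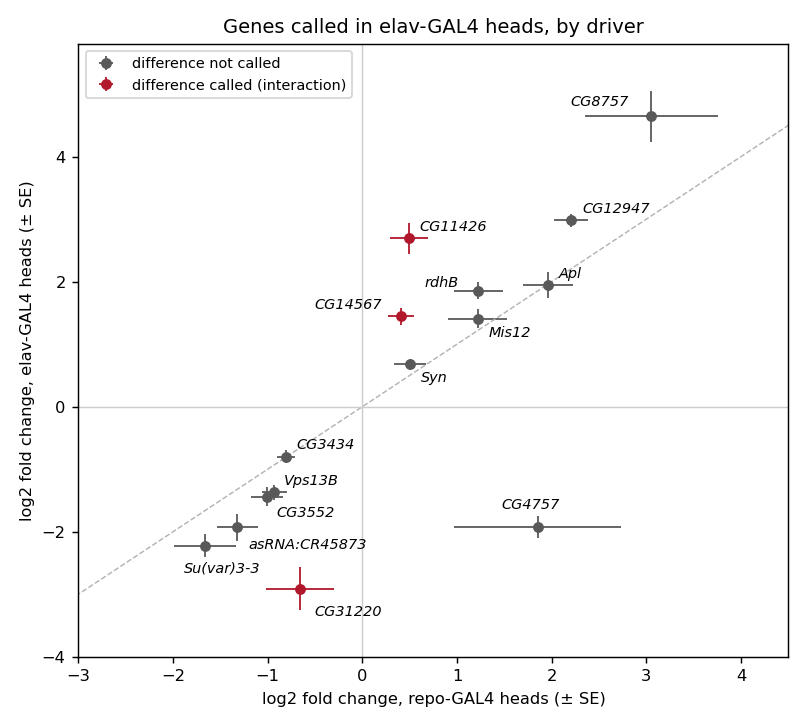
Log2 fold change of knockdown over control (± SE) under elav-GAL4 (y axis) and repo-GAL4 (x axis) for 15 of the 16 called genes, without *mthl8*, whose knockdown libraries are at 0 counts in both. Most genes lie near the dashed line of equal change, *CG11426*, *CG14567* and *CG31220* (red) differ between the drivers, and *CG4757* has opposite signs.

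Of the lists, the nucleolar one held the most genes that differed between the drivers. Its median log2 fold change was -0.46 under elav-GAL4 and 1.03 under repo-GAL4. By the interaction test 12 of its 15 genes differed, all of them lower in neuron-specific knockdown (all genes tested, 2.39%). The study picked genes of ribosome biogenesis from these same libraries under both drivers, so this count is not independent evidence of a difference. Of the aminoacyl-tRNA synthetases, 6 of 32 differed in that direction (all genes tested, 2.39%) and 0 in the other (0.624%). *ImpL2*, a secreted inhibitor of insulin signalling, had 139, 95.1 and 126 CPM in neuron controls and 55.2, 79.2 and 23.3 CPM in neuron-specific knockdown (log2 fold change -1.19 ± 0.39), beside 1.63 in the glia-specific comparison (edgeR interaction adjusted p = 0.0085). Glia controls had 32.3, 38.0 and 40.9 CPM of *ImpL2* and glia-specific knockdown 113, 114 and 115 CPM. For *Nop60B* these were 23.5, 32.3 and 25.2 CPM and 115, 77.2 and 84.2 CPM, beside 80.2, 74.6 and 76.5 CPM in neuron controls. The controls of the drivers thus differed in level for both genes, with CPM scaled within each driver. The part of these control levels in the interaction was not tested. Glycolysis had medians of 0.62 and -0.13, and none of its 15 genes passed the interaction test.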

How the data were processed

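Messenger RNA of whole heads was sequenced in 12 libraries, and the 6 of the elav-GAL4 cross were compared here, grouped by their labels. The deposited table holds raw counts of reads for each gene of FlyBase. To make it, the authors used seqtk 1.2 for trimming, Bowtie2 2.2.9 for alignment against BDGP Release 6 and SAMtools 1.12 for sorting, and the counting tool and its use of strand are not given in the sources used here. A DESeq2 result table deposited by the authors for each driver holds their own fold changes and p-values and was not used.

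Counts were fitted in R 4.3.3 with edgeR 4.0.16 (quasi-likelihood F test, two-sided, TMM scaling, default filter on low counts), with Benjamini-Hochberg adjustment over the 9983 genes tested, and a call needed an adjusted p no higher than 0.05 together with 1.5-fold or more change. DESeq2 1.42.0, the tool of the study, was an alternative, as were other size factors, no filter, no fold threshold, all 12 libraries in the fit, the replicate number as a block, and leaving out each library. The interaction of driver and knockdown was fitted over 12 libraries. Python 3.11.15 with pandas 2.3.3 and numpy 2.4.6 was used for summaries. Of 17737 gene identifiers, 17599 were named, and positions and overlaps came from Ensembl release 115.

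With 3 libraries a group, labelled as biological replicates, precision rests on the spread between them. Every pair within a group differed beyond sampling noise (chi-square divided by genes, 6.71 to 203). The comparison, its gene lists and the rule for named genes were chosen with earlier results of these data known. That rule takes *PIG-A*, *elav*, *repo*, *mthl8*, *v*, *w* and *y*, all edgeR calls, up to 4 separated members of each list with the smallest p and a mean of at least 10 counts, and the 8 largest increases and decreases called by DESeq2 alone. Other members were named from the lists, and *Arts*, *Timp*, *CG3437*, *roX1*, *Yp1*, *Yp3* and the replication list after their values were seen. Lists are described by counts and medians beside all genes tested, with no test. The fits were tested on simulated data, where DESeq2 made more false calls than edgeR and a larger share of them than its threshold allows. The simulated counts used the dispersions estimated by edgeR and had no library that stood apart. They therefore do not measure the false calls of either tool in the real libraries. Of the genes fixed by the rule and not described above, *v* had 37.3 to 38.9 CPM in controls and 61.9, 57.2 and 26.7 CPM in the knockdown, and *y* had 1.23 to 2.09 CPM against 3.60 to 4.15 CPM.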

Additional observations from a re-analysis of the deposited data

Results flagged for a closer look

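Among the genes named, 18 had a knockdown effect that differed between neuron-specific and glia-specific knockdown (all genes tested, 3.01%). The edgeR interaction test over 12 libraries was used (adjusted p no higher than 0.05 and effects 1.5-fold or more apart). Most genes were named for their values in the neuron-specific comparison, which enters this test, so the count of 18 is not a result about them. The values that follow are the log2 fold change under elav-GAL4 minus that under repo-GAL4, and no cause was tested.

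Of the genes called in neuron-specific knockdown, *CG11426* (2.2) and *CG14567* (1.04) had the higher effect under elav-GAL4 and *CG31220* (-2.26) the lower. The cuticle gene *Cpr49Ag* (5.94) had a log2 fold change of 1.96 under elav-GAL4 and -3.98 under repo-GAL4. Under elav-GAL4 its libraries had 5.97, 4.86 and 5.33 CPM in controls and 12.0, 10.0 and 41.0 CPM in the knockdown, the highest in library 3. Under repo-GAL4 they had 10.3, 14.7 and 47.8 CPM in controls, the highest in control library 3, and 1.43, 1.42 and 1.76 CPM in the knockdown.

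The effect was lower under elav-GAL4 for the nucleolar and RNA polymerase I genes *Nop60B* (-2.47), *Nopp140* (-1.56), *Nnp-1* (-1.24) and *Polr1C* (-1.03). It was likewise lower for the tRNA synthetases *IleRS* (-1.27), *LeuRS* (-1.26), *AsnRS* (-1.08) and *MetRS* (-0.80) and for asparagine synthetase *AsnS* (-1.90). Control levels of *AsnS* differed between the drivers, at 144, 132 and 181 CPM in neuron controls and 59.3, 56.5 and 45.3 CPM in glia controls. Glia-specific knockdown had 112, 112 and 114 CPM.

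In hormone and stress signalling the effect was lower for the ecdysone hydroxylase *shd* (-3.61), the insulin antagonist *ImpL2* (-2.82), the damage-response gene *Gadd45* (-1.55) and the insulin-regulated transcription factor *foxo* (-0.66). *wrapper*, a GPI-anchored protein of midline and cortex glia, had a difference of -0.64. Its control levels were similar, at 50.6, 53.5 and 50.7 CPM in neuron controls and 52.5, 53.8 and 45.2 CPM in glia controls.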

How the results depend on the processing

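The number of genes called was the least stable result. Called higher were 8 genes with edgeR, 177 with DESeq2, 15 with all 12 libraries in the fit, 28 without the filter on low counts, 2 with the replicate number as a block, and 1 to 127 when 1 library was left out. Called lower were 8, and with the same alternatives 102, 15, 21, 0 and 0 to 72. At an unadjusted p under 0.05 edgeR gave 798 higher and 644 lower. Other size factors and no fold threshold gave 8 and 8. The interaction gave 309 genes, 680 with DESeq2, 205 with the block and 130 to 485 when 1 library was left out. The deviations of same-numbered libraries correlated at 0.02, 0.05 and -0.10. These values show no pairing by number, but with 3 libraries a group they cannot settle it. Genes with separated libraries numbered 1099 above and 1057 below with other size factors and 1202 and 1250 without the filter. The cause of these differences was not tested.

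The log2 fold change of *PIG-A* was -0.64 to -0.37 when 1 library was left out. Without knockdown replicate 3, *w* changed sign from 0.03 to -0.13 (-0.13 to 0.11 over all libraries left out), *roX1* from -0.38 to 0.01 and the median of the synaptic genes from 0.06 to -0.06. With 3 libraries per group of whole heads, differences confined to a few cell types, and in genes of very few counts such as *PIG-A*, are poorly measured.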
